A study of Homo sapiens with 9 samples.

Results

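Antigen presentation by major histocompatibility complex (MHC) class I was followed through 9 genes in PANC-1, an established human cell line from a pancreatic tumour. The genes were taken by name from the deposited table of 27800 gene symbols, and 9 of 9 were listed: the heavy chains HLA-B, HLA-C, HLA-E and HLA-F, the light chain B2M, the peptide transporter subunits TAP1 and TAP2, the loading factor TAPBP and the transactivator NLRC5. RNA sequencing gave 1 value per gene and sample, in TPM (reads assigned per transcript length, scaled to the same total in each library), for 3 samples each at day 0, day 2 and day 14 of combined nutrient and oxygen deprivation. The medium was low in glucose, serum and amino acids, its wording was the same for all 9 samples, and no other treatment was given. The labels named no oxygen level and no undeprived samples at day 2 or day 14, so deprivation cannot be told apart from time in culture. The column headers called all samples WT. The labels did not say whether replicates were separate cultures, so p-values reflect only how far these samples varied, possibly for technical reasons alone. TPM values keep no record of depth, which was unknown.

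MHC class I molecules carry short peptides from inside the cell to its surface, where CD8 T cells read them. A polymorphic heavy chain pairs with beta-2 microglobulin, the product of B2M, in the endoplasmic reticulum. TAP1 and TAP2 form the transporter that brings peptides into that compartment, and TAPBP (tapasin) bridges the transporter to the empty heavy chain. HLA-E, a less polymorphic heavy chain, mainly shows leader peptides of other class I chains to NKG2A receptors on natural killer cells. NLRC5 drives transcription of many of these genes through a conserved promoter module, and interferon gamma raises most of them. Pancreatic tumour cells are known for low surface class I, to which removal by autophagy through the receptor NBR1 contributes.

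The class I promoters are shown because the 2 transporter genes fell at day 2 while TAPBP, B2M and the heavy chains were not called, as described below. The RefSeq promoter table (GRCh38.p14) matched 7 of 9 members, all but HLA-E and NLRC5. The 250 bases before the transcript start are printed 5′ to 3′ on the gene's own strand, in lower case, for both transporter genes and, from those not called, for TAPBP, B2M and HLA-B. Capitals mark matches on either strand to the interferon response element core (GAAA, then NN, then GAAA), the inverted CCAAT sequence ATTGG, the cyclic AMP response element core TGACG and the NF-kB consensus.
TAP2, chr6:32838740-32838989, minus strand: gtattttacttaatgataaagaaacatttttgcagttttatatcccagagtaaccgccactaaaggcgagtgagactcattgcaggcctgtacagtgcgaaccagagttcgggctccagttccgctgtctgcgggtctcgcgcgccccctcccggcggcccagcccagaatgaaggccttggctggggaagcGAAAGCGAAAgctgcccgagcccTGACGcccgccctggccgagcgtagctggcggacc
TAP1, chr6:32853705-32853954, minus strand: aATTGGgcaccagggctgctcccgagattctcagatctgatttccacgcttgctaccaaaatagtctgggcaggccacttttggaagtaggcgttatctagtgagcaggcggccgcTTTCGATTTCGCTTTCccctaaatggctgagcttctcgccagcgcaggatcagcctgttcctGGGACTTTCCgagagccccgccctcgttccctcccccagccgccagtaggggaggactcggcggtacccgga
TAPBP, chr6:33314079-33314328, minus strand: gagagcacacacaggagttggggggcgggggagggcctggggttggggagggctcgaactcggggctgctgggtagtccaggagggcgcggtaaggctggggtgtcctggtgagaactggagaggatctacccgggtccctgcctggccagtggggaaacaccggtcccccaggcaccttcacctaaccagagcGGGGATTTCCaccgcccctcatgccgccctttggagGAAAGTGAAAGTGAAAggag
B2M, chr15:44711267-44711516, plus strand: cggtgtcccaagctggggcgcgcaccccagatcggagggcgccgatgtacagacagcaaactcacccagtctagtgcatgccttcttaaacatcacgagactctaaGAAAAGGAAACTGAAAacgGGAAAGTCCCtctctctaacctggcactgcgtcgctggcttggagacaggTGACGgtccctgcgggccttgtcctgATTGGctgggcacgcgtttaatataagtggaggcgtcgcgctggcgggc
HLA-B, chr6:31357180-31357429, minus strand: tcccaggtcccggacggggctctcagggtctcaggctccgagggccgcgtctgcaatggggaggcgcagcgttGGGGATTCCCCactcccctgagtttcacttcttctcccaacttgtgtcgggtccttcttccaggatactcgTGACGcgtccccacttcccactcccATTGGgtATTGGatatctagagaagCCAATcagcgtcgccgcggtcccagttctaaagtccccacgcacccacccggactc

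The interferon element core was in 5 of the 7 members' windows, namely TAP1, TAP2, TAPBP, B2M and HLA-F, and in 3.02% of all 35116 windows of this length in the table. TAP1, TAPBP and B2M each held 2 overlapping copies of it, and TAP2 held 1. ATTGG was in 5 of 7 and in 32% of all windows, TGACG in 4 of 7 and in 21.2%, and the NF-kB consensus in 5 of 7 and in 9.96%. TAP1 and TAP2, which fell, held the interferon element core, as did TAPBP, B2M and HLA-F, which were not called. HLA-B and HLA-C, also not called, held no match to it. Only exact matches were sought, so an element that departs from these letters is not marked. TAP1 had a further listed start, whose window held none of the 4 motifs. A match of letters is a description and shows no binding.

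Day 0 replicate 2 stood apart from the other libraries. Only 11363 genes reached 1 TPM in it, whereas the other 8 libraries had 13016 to 13868 such genes, and it lay outside the other day 0 libraries for each of the 9 genes, above them for HLA-B, HLA-F and B2M and below them for the other 6. Changes against day 0 are therefore also given without it for part of the genes named below. The ductal markers KRT7, KRT8, KRT18, KRT19 and EPCAM summed to 3137 to 4400 TPM at day 0, 1044 to 1250 TPM at day 2 and 1150 to 1351 TPM at day 14. Of these 5, 4 were called lower than at day 0 on both later days, where 11.5% of all tested genes were at day 2 and 6.72% at day 14. Of 6 leukocyte markers 1 was tested, CD68, which set most of a sum of 36.3 to 69.8 TPM at day 0, 22.5 to 41.0 TPM at day 2 and 41.7 to 57.2 TPM at day 14, while PTPRC reached at most 0.176 TPM and TYROBP was at 0. Of 6 fibroblast markers 1 was tested, COL1A1, which set most of a sum of 10.1 to 61.1 TPM at day 0, 55.8 to 73.0 TPM at day 2 and 8.58 to 13.02 TPM at day 14, while COL1A2 reached at most 0.00782 TPM and DCN was at 0. The part of these markers in the results was not tested. The 10 MHC class II genes, which mark professional antigen-presenting cells, summed to 0.738 to 2.09 TPM. In bulk RNA, fewer cells with a message and less message per cell cannot be told apart.

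B2M was the most abundant of the 9 messages on every day, at 696 ± 212, 436 ± 15.6 and 468 ± 62.6 TPM at days 0, 2 and 14 (mean ± SD, n = 3 per day here and below). HLA-E came next at 51.0 ± 19.3, 63.5 ± 14.6 and 111 ± 13.7 TPM. At day 2 the order below it was TAPBP, HLA-C, HLA-B, TAP1, TAP2, HLA-F and NLRC5, and no neighbours in that order overlapped between libraries. At day 0 the libraries of HLA-E, TAPBP, TAP2, HLA-C, HLA-B and TAP1 overlapped from each gene to the next, and at day 14 those of HLA-C and TAPBP and of TAP1 and TAP2 did. HLA-F stayed at 0.502 to 2.84 TPM and NLRC5 at 0.193 to 0.475 TPM. TAP2 ranked 4 by mean at day 0 and 7 at days 2 and 14.

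**Figure D1:**
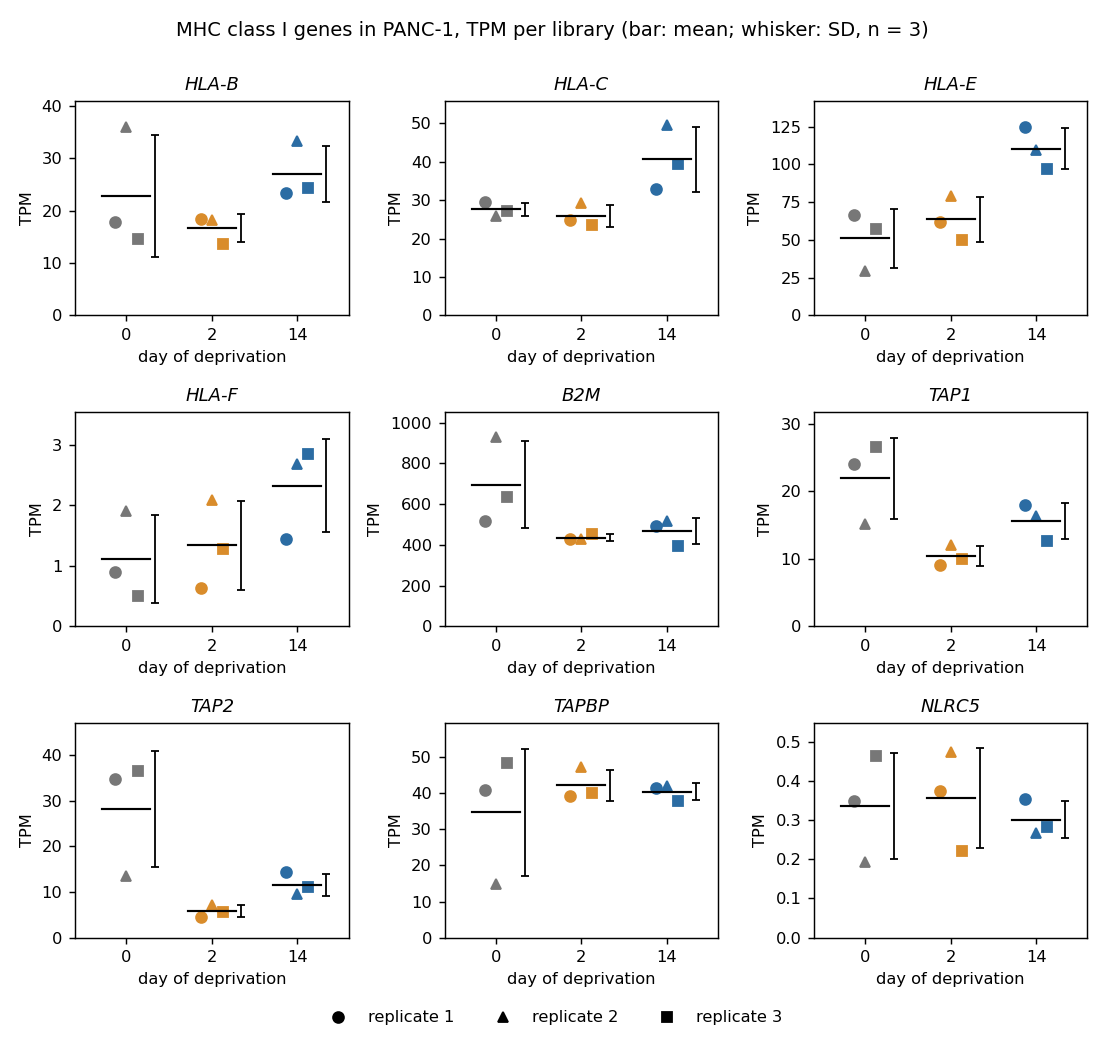
TPM of each of the 9 genes (vertical axis) by day of deprivation (horizontal axis), with 1 point per library shaped by replicate number, the mean as a bar and the SD as a whisker (n = 3). TAP2 at day 2 lies at 4.50 to 7.12 TPM, below all day 0 libraries, and HLA-E at day 14 lies at 97.2 to 125 TPM, above all libraries of days 0 and 2.

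After 2 days of deprivation both transporter subunits were lower than at day 0. TAP2 was at 4.50, 7.12 and 5.66 TPM at day 2, against 34.7, 13.5 and 36.4 TPM at day 0. The days did not overlap, and the lowest day 0 value was that of replicate 2. The change was -2.01 ± 0.37 on the log2(TPM + 1) scale (SE, limma adjusted p = 0.00485), and 1.44% of the tested genes had a change at or below it. Without day 0 replicate 2 it was -2.45 (adjusted p = 0.000146), and the fall of TAP2 remained called in every alternative run.

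TAP1, its partner in the transporter, was at 9.11, 12.0 and 10.1 TPM at day 2, against 24.0, 15.1 and 26.6 TPM at day 0. Every day 2 library was below every day 0 library. The change was -0.98 ± 0.25 (adjusted p = 0.0182). Its call was lost on leaving out replicate 1 or 3 of day 0 (adjusted p = 0.0513 and 0.0539) or of day 2 (0.0717 and 0.0632), and it was kept on leaving out replicate 2 of day 0 (-1.22, adjusted p = 0.00114). TAP1 to TAP2 ratios in TPM were 0.694, 1.12 and 0.731 at day 0, 2.02, 1.69 and 1.78 at day 2, and 1.26, 1.71 and 1.15 at day 14, so TAP1 had the higher value of the pair in every library of days 2 and 14.

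Of the 9 genes, 8 reached 1 TPM in at least 3 libraries and were tested, all but NLRC5. At day 2, 2 of 8 were called lower than at day 0, TAP1 and TAP2, where 11.5% of all 14144 tested genes were called lower. By limma 0 of 8 were called higher, where 19.2% of all tested genes were. At an unadjusted p under 0.05 there were also 0 higher, a threshold for which no share of all tested genes was computed. The median change of the 8 was -0.21, against a median of 0.23 over all tested genes. The count of lower members was 1, TAP2 alone, on leaving out replicate 3 of day 0 or replicate 1 or 3 of day 2. On leaving out replicate 1 of day 0 it was 2, TAP2 and B2M. Called genes in all dropped from 4348 to 4044 without replicate 3 of day 0, and to 2719 and 2678 without replicate 1 or 3 of day 2. B2M was at 427, 427 and 454 TPM at day 2, against 519, 931 and 637 TPM at day 0. These libraries did not overlap either, as was so in the lower direction for 17.4% of all tested genes. Its change of -0.63 (95% interval -1.16 to -0.11) missed the threshold after adjustment (adjusted p = 0.0681), and without day 0 replicate 2 it was -0.40 (adjusted p = 0.0522). The call was gained without day 0 replicate 1 (adjusted p = 0.0335) and under quantile normalization (0.0436).

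The heavy chains were not called at day 2. HLA-C was at 24.7, 29.2 and 23.6 TPM at day 2, against 29.5, 26.0 and 27.2 TPM at day 0, with a change of -0.09 and an interval of -0.53 to 0.34. HLA-E had an interval of -0.34 to 1.08 and HLA-B one of -1.07 to 0.41. HLA-F was at 0.636, 2.09 and 1.28 TPM at day 2, against 0.907, 1.91 and 0.502 TPM at day 0 (interval -0.58 to 0.89). HLA-B was at 18.4, 18.2 and 13.7 TPM at day 2, against 17.8, 36.1 and 14.6 TPM at day 0, and without replicate 2 of day 0 its change of -0.33 became 0.04. TAPBP was at 39.3, 47.3 and 40.2 TPM at day 2, against 41.0, 14.9 and 48.3 TPM at day 0. Its change of 0.43 (interval -0.43 to 1.29) became -0.08 without day 0 replicate 2.

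By day 14 HLA-E was the heavy chain that had risen against day 0. It was at 125, 110 and 97.2 TPM at day 14, against 66.4, 29.3 and 57.1 TPM at day 0, and the days did not overlap. The change was 1.17 ± 0.31 (SE, adjusted p = 0.0204), or 0.73 above the median of all tested genes, and 83.9% of them had a change at or below it. It was 0.83 without day 0 replicate 2 (adjusted p = 0.0114) and 0.64 with libraries rescaled by median ratios (adjusted p = 0.0296). Its call was lost without day 14 replicate 1 or 2 (adjusted p = 0.0668 and 0.0591).

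The other heavy chains were at higher mean values at day 14 without passing the test. HLA-C was at 32.8, 49.5 and 39.5 TPM at day 14, against 29.5, 26.0 and 27.2 TPM at day 0. These libraries did not overlap, as for 42.5% of all tested genes in that direction, and the change was 0.52 (interval 0.09 to 0.96, adjusted p = 0.0636), a call gained without day 14 replicate 1 (adjusted p = 0.0438). HLA-B was at 23.4, 33.2 and 24.3 TPM at day 14, against 17.8, 36.1 and 14.6 TPM at day 0, with a change of 0.32 (adjusted p = 0.46). Without day 0 replicate 2 it was 0.69 and called (adjusted p = 0.0216), and so was HLA-F at 0.95 (adjusted p = 0.0364). HLA-F was at 1.45, 2.68 and 2.84 TPM at day 14, against 0.907, 1.91 and 0.502 TPM at day 0. Under median-ratio scaling the changes of HLA-B and HLA-C were -0.21 and -0.01, so their direction was not kept.

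The transporter remained at lower mean values at day 14. TAP2 was at 14.3, 9.55 and 10.99 TPM at day 14, against 34.7, 13.5 and 36.4 TPM at day 0, and day 14 replicate 1 lay above day 0 replicate 2. The change was -1.11 ± 0.37 (adjusted p = 0.0476), or -1.55 relative to the median of all tested genes. This call was a narrow one. It was lost when any 1 library other than day 0 replicate 2 was left out (adjusted p between 0.0642 and 0.138) and strengthened without day 0 replicate 2 (-1.55, adjusted p = 0.000884). TAP1 was at 17.9, 16.3 and 12.6 TPM at day 14, against 24.0, 15.1 and 26.6 TPM at day 0. Its change of -0.44 was not called (adjusted p = 0.194), and without day 0 replicate 2 it was -0.68 and called (adjusted p = 0.014), as it was under median-ratio scaling (-0.96, adjusted p = 0.00233). B2M was at 491, 515 and 397 TPM at day 14, all below the 519 to 931 TPM of day 0, as was so in that direction for 9.95% of all tested genes, with a change of -0.54 that missed the threshold (adjusted p = 0.0999), a call gained without day 0 replicate 1 (0.0425). TAPBP was at 41.5, 42.2 and 37.9 TPM at day 14, close to the 41.0 and 48.3 TPM of day 0 replicates 1 and 3.

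Against day 0, 1 of 8 tested members was called higher at day 14 (27.5% of all tested genes were) and 1 of 8 lower (6.72%), and 34.2% of all tested genes were called in either direction. The median change of the 8 was 0.35, against 0.44 over all tested genes. Most called genes were higher in this comparison, 80.4%, and under median-ratio scaling the share was 50%. Leaving out day 0 replicate 2 gave 3 members higher, HLA-B, HLA-E and HLA-F (34.6% of all tested genes), and 2 lower, TAP1 and TAP2 (14.5%). On leaving out replicate 2 of day 14 the counts were 0 and 0, where 3141 genes were called in all, against 4841. The count of lower members was also 0 on leaving out replicate 3 of day 0, replicate 1 or 3 of day 14, or any 1 day 2 library, and the 1 lower member was B2M on leaving out replicate 1 of day 0.

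**Figure D2:**
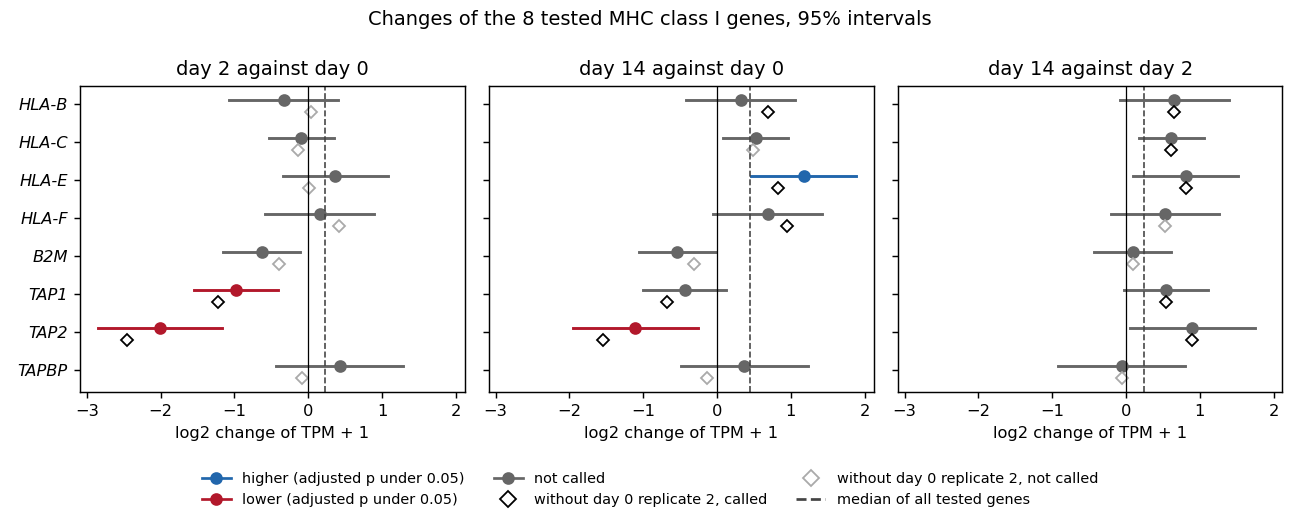
Log2 change of TPM + 1 (horizontal axis) for the 8 tested genes (vertical axis) in each comparison of days, as filled points with 95% intervals, with the estimate without day 0 replicate 2 as an open diamond and the median of all tested genes as a dashed line. TAP2 lies at -2.01 at day 2 and at -1.11 at day 14 against day 0, whereas HLA-E lies at 1.17 at day 14.

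Between day 2 and day 14 the libraries of HLA-B, HLA-C, HLA-E, TAP1 and TAP2 did not overlap, all being higher at day 14, which makes 5 of 8 against 36.8% of all tested genes. HLA-E was at 125, 110 and 97.2 TPM at day 14, against 61.8, 78.9 and 49.8 TPM at day 2, a change of 0.81 (interval 0.10 to 1.52). TAP2 was at 14.3, 9.55 and 10.99 TPM at day 14, against 4.50, 7.12 and 5.66 TPM at day 2, a change of 0.90 (interval 0.06 to 1.74). HLA-C changed by 0.62 (interval 0.18 to 1.05). By limma 0 of 8 members were called in either direction (adjusted p of at least 0.157), where 0.212% of all tested genes were called higher and 0.205% lower, or 0.417% in either direction. At an unadjusted p under 0.05 there were 3 higher, HLA-C, HLA-E and TAP2, and 0 lower. Without day 0 replicate 2, which enters this comparison only through the shared estimate of spread, 5 members were called higher, HLA-B, HLA-C, HLA-E, TAP1 and TAP2, where 23.5% of all tested genes were, and 0 lower, where 3.86% were. Fitting only days 2 and 14 called 4 higher, HLA-B, HLA-C, HLA-E and TAP2. In that fit 2648 of 13841 tested genes were called, 84.9% of them higher. The comparison of day 2 with day 0 and that of day 14 with day 0 share the day 0 libraries.

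Summed over HLA-B, HLA-C, HLA-E and HLA-F, heavy chain messages amounted to 115, 93.3 and 99.5 TPM at day 0, 106, 128 and 88.4 TPM at day 2, and 182, 195 and 164 TPM at day 14. The day 14 libraries were above all others. HLA-E made up 31.4% to 58.0% of that sum at day 0, 56.4% to 61.4% at day 2 and 56.2% to 68.4% at day 14, and the low value was that of day 0 replicate 2. The ratio of B2M to the heavy chain sum was 4.53, 9.98 and 6.40 at day 0, 4.05, 3.33 and 5.14 at day 2, and 2.69, 2.64 and 2.42 at day 14. Every day 14 library thus had less B2M message per heavy chain message than any library of days 0 and 2. B2M was still in excess of the 4 heavy chains in every library. These sums and ratios are descriptions of chosen genes and were not tested.

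**Figure D3:**
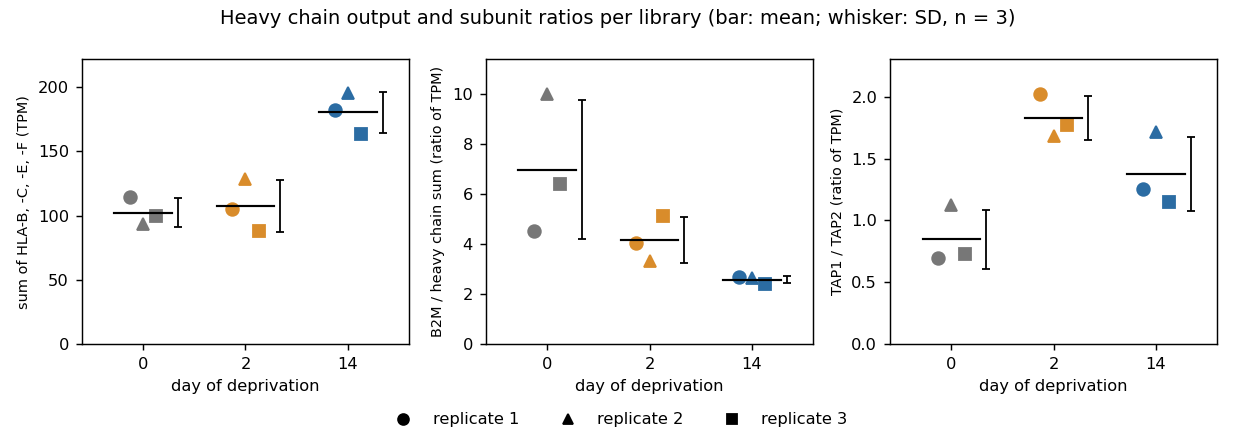
Heavy chain sum in TPM (left), ratio of B2M to that sum (middle) and ratio of TAP1 to TAP2 (right), vertical axes, by day of deprivation (horizontal axes), with 1 point per library, the mean as a bar and the SD as a whisker (n = 3). The day 14 libraries lie at 164 to 195 TPM in the left panel and at 2.42 to 2.69 in the middle panel, apart from the other days in both.

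NLRC5 did not reach 1 TPM in any library and was not tested. It was at 0.349, 0.193 and 0.463 TPM at day 0, 0.374, 0.475 and 0.221 TPM at day 2, and 0.355, 0.268 and 0.281 TPM at day 14, and the 3 days overlapped. HLA-F had an antisense gene, HLA-F-AS1, at 0.215, 0 and 0.0768 TPM at day 0, 0.755, 0.538 and 0.377 TPM at day 2, and 0.803, 1.81 and 1.95 TPM at day 14. PSMB8-AS1, antisense to part of TAP1, was at 0.0807 to 1.17 TPM. The strand setting was not given in the sources used here, so reads of these pairs cannot be told apart.

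The heavy chains resemble each other in sequence. Of the 31-base words in their protein-coding transcripts (GENCODE 29, GRCh38), 15.1% for HLA-B, 19.3% for HLA-C, 11.5% for HLA-E and 4.04% for HLA-F also occurred in another gene. HLA-B shared 9.86% of its words with HLA-C, and HLA-C shared 11% of its words with HLA-B. B2M and NLRC5 shared 0%. Of TAP2's words 33% were shared, mostly outside the other members (0.81% with TAP1). A same-strand gene that overlaps TAP2 in this annotation, AL669918.1, was not among the symbols of the table. The class I heavy chain genes also differ between people, and reads were assigned to reference transcripts rather than to the alleles of PANC-1. The split of reads between HLA-B and HLA-C is therefore uncertain.

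Of the 3 proteasome subunits that interferon swaps in to favour class I peptides, PSMB8 and PSMB10 were called lower at day 2 and PSMB9 was not. Of 5 immunoproteasome and activator genes, 3 were called lower at day 2 (11.5% of all tested genes) and 0 higher (19.2%). Their median change was -0.98, against 0.23 over all tested genes. PSMB8, which lies next to TAP1 in the genome, was at 6.04, 10.6 and 6.25 TPM at day 2, against 14.9, 49.2 and 20.7 TPM at day 0, a change of -1.62 ± 0.40 (adjusted p = 0.0169), and PSMB10 changed by -1.52 ± 0.40 (adjusted p = 0.0224). In both genes every day 2 library was below every day 0 library. Without day 0 replicate 2 the changes were smaller, at -1.14 for PSMB8 and -0.99 for PSMB10 (adjusted p = 0.00647 and 0.00246). PSMB9, which faces TAP1 across a shared promoter region, was at 3.65, 5.38 and 6.22 TPM at day 2, against 6.10, 20.5 and 8.59 TPM at day 0, and was not called (adjusted p = 0.0976), with 1 day 2 library above the lowest day 0 library. The PA28 subunit PSME2 passed narrowly (-0.98, adjusted p = 0.0493), and its change was -0.58 without day 0 replicate 2 (adjusted p = 0.0211). On leaving out 1 library the number called lower was 5 (replicate 1 of day 0), 4 (replicate 2 of day 0), 2 (replicate 3 of day 0 or any 1 day 14 library), 1 (replicate 2 of day 2) or 0 (replicate 1 or 3 of day 2), so the count of 3 was kept in none of these fits. It was 0 with only the 2 days compared in the fit. Called genes in all, in either direction, were also fewer than the 4348 of the main fit. They numbered 2719, 2876 and 2678 without replicate 1, 2 or 3 of day 2, and 3123 with only the 2 days compared. Without replicate 2 of day 0, 23.6% of all tested genes were called lower at day 2. At day 14 against day 0 there were 0 of 5 in either direction by limma, where 27.5% of all tested genes were higher and 6.72% lower. At an unadjusted p under 0.05 there were 2, both lower. There were 3 lower on leaving out replicate 1 of day 0, and 2 lower on leaving out its replicate 2 (14.5% of all tested genes). PSMB8, PSMB9 and PSMB10 summed to 55.2, 175 and 63.5 TPM at day 0, 25.4, 34.9 and 28.4 TPM at day 2, and 47.9, 45.6 and 39.0 TPM at day 14.

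Among 6 loading chaperones and peptide trimming enzymes, 1 fell at day 2 (11.5% of all tested genes did) and 0 rose (19.2%). It was CALR, calreticulin, which holds empty class I molecules in the loading complex, at 189, 207 and 177 TPM at day 2, against 629, 347 and 635 TPM at day 0. The days did not overlap, and the change was -1.43 ± 0.25 (adjusted p = 0.004). At day 14 it was at 390, 343 and 300 TPM and was not called against day 0 (-0.59, adjusted p = 0.098), but was without day 0 replicate 2 (-0.88, adjusted p = 0.00143) and under median-ratio scaling (-1.14, adjusted p = 0.00154). CANX, calnexin, was at 202, 212 and 199 TPM at day 2, against 219, 46.7 and 215 TPM at day 0, and its change of 0.64 (adjusted p = 0.367) became -0.09 without day 0 replicate 2. PDIA3, the oxidoreductase of the loading complex, changed by -0.14 (interval -0.48 to 0.21). ERAP1, which trims peptides, changed by 0.83 at day 2 and by 1.09 at day 14 against day 0, and neither passed (adjusted p = 0.15 and 0.0663). At day 14 the counts were 0 of 6 in either direction by limma, where 27.5% of all tested genes were higher and 6.72% lower. Without day 0 replicate 2 the counts were 2 higher (34.6% of all tested genes), CANX and ERAP1, and 1 lower (14.5%), CALR. On leaving out replicate 1 or 3 of day 0 they were 1 higher, ERAP1, and 0 lower.

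Factors that bind class I promoters moved in both directions. Of 12, 5 rose and 1 fell at day 2, and 5 rose and 1 fell at day 14, both against day 0. Of all tested genes 19.2% rose and 11.5% fell at day 2, and 27.5% rose and 6.72% fell at day 14, so 1 fall in 12 is near these shares. The rises were IRF2, CREB1, NFYA, ATF1 and NFYB on both days, and the fall was RFXANK, a subunit of the complex that recruits NLRC5. IRF2, which binds interferon response elements, was at 12.4, 16.8 and 14.6 TPM at day 2, against 5.34, 1.41 and 6.55 TPM at day 0 (1.67 ± 0.39, adjusted p = 0.0133), and at 20.1, 16.4 and 17.5 TPM at day 14 (1.96, adjusted p = 0.00651). Its libraries did not overlap with those of day 0, and without day 0 replicate 2 its changes were 1.16 at day 2 and 1.45 at day 14. RFXANK changed by -1.20 at day 2 (adjusted p = 0.0246) and by -1.24 at day 14 (0.0201), or by -0.85 and -0.89 without that replicate. RFX5, its partner, was at 7.995, 8.85 and 8.18 TPM at day 2, against 17.2, 5.55 and 17.9 TPM at day 0. Its change of -0.49 was not called (adjusted p = 0.357) and became -0.99 and called without day 0 replicate 2 (adjusted p = 0.00194). IRF1 changed by 0.92 at day 2 (adjusted p = 0.0619). At day 2 the rises numbered 2 on leaving out its replicate 1 or 2 or with only the 2 days compared in the fit, and 1 on leaving out its replicate 3. Called genes in all were also fewer in these fits, 2719, 2876, 3123 and 2678 in that order, against 4348. At day 14 the rises numbered 3 on leaving out its replicate 2, where 3141 genes were called in all, against 4841. The fall of RFXANK was lost on leaving out replicate 1 or 3 of day 2 or, at day 14, replicate 2 or 3 of that day, and RFX5 joined it on either day when replicate 2 of day 0 was left out. Under median-ratio scaling NFYB was not called on either day and ATF1 not at day 2.

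In the interferon pathway 1 of 11 signalling genes rose and 1 fell on either day against day 0, which is below the share of all tested genes that rose (19.2% at day 2 and 27.5% at day 14) and near the share that fell (11.5% and 6.72%). IFNGR1, the ligand-binding chain of the interferon gamma receptor, was at 25.7, 23.7 and 27.2 TPM at day 2, against 11.5, 7.57 and 11.1 TPM at day 0 (1.28 ± 0.19, adjusted p = 0.00209), and at 31.9, 38.2 and 36.0 TPM at day 14 (1.73, adjusted p = 0.000662). Every day 2 and day 14 library was above every day 0 library, and both calls held in every alternative run. The fall was that of SOCS1, a feedback inhibitor of JAK kinases, at -0.92 at day 2 and -1.53 at day 14 (adjusted p = 0.0233 and 0.00292). At day 2 it was lost on leaving out replicate 1 or 3 of day 0 or any 1 day 2 library. Falls numbered 4 at day 2 and 2 at day 14 without day 0 replicate 2, where 23.6% and 14.5% of all tested genes fell. Under median-ratio scaling the falls numbered 2 on either day. The rises at day 14 were 2, IFNGR1 and IFNAR1, on leaving out replicate 1 or 2 of day 0. Without that replicate 2, 34.6% of all tested genes rose.

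Of 20 interferon-induced genes 11 were tested, and at day 2 4 fell (11.5% of all tested genes did) and 1 rose (19.2%). ISG15, a ubiquitin-like protein, was at 30.2, 27.5 and 23.8 TPM at day 2, against 49.6, 159 and 53.0 TPM at day 0, a change of -1.44 ± 0.43 (adjusted p = 0.0336). IFI6 changed by -1.70 (adjusted p = 0.025), IFIT1 by -1.06 (0.0261) and IFITM3 by -0.51 (0.041), and the rise was IFI35 at 0.77 (0.0192). Without day 0 replicate 2 the change of ISG15 was -0.90, that of IFI6 -1.61, IFIT1 -1.10, IFITM3 -0.45 and IFI35 0.90. On leaving out 1 library the falls numbered 5 (replicate 2 of day 0), 2 (its replicate 1 or 3, or replicate 2 of day 14), 1 (replicate 1 of day 2) or 0 (replicate 2 or 3 of day 2). Without replicate 2 of day 0, 23.6% of all tested genes fell. With 1 day 2 library left out, 2678 to 2876 genes were called in all, against 4348. The rise of IFI35 was lost on leaving out replicate 1 of day 0 or any 1 day 2 library, and under median-ratio scaling. ISG15 was at 108, 70.5 and 63.5 TPM at day 14, above the 3 day 2 libraries, a change of 1.503 against day 2 that was not called (adjusted p = 0.131) but was without day 0 replicate 2 (0.00672) and with only days 2 and 14 in the fit (0.0166). At day 14 against day 0 IFI35 alone of the 11 was called higher, where 27.5% of all tested genes were (0.88, adjusted p = 0.0103, not under median-ratio scaling), and 0 were lower by limma and at an unadjusted p under 0.05, or 1 on leaving out replicate 2 or 3 of day 0. Of all tested genes 6.72% were called lower, and 14.5% without replicate 2 of day 0. CXCL10 was listed at 0 in all 9 libraries.

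Genes listed here under class I turnover were called only upward, and turnover of class I itself was not measured. Of 6, 4 rose at day 2 (19.2% of all tested genes) and 4 at day 14 (27.5%) against day 0. By limma 0 fell at day 2 (11.5%) or day 14 (6.72%), also 0 at an unadjusted p under 0.05. NBR1, the autophagy receptor that carries class I to lysosomes in pancreatic cancer cells, was at 26.7, 32.0 and 27.4 TPM at day 2, against 10.5, 5.82 and 12.7 TPM at day 0 (1.53 ± 0.26, adjusted p = 0.00365). It was at 49.7, 42.9 and 37.8 TPM at day 14, a change of 2.11 ± 0.26 against day 0 (adjusted p = 0.00105). No libraries overlapped between the 3 days, and both calls against day 0 held in every alternative run. Without day 0 replicate 2 the changes of NBR1 were 1.24 at day 2 and 1.82 at day 14. MARCH9, a membrane ubiquitin ligase for class I, changed by 1.43 at day 2 and by 1.74 at day 14 (adjusted p = 0.00185 and 0.000909). TMEM129, a ubiquitin ligase of the endoplasmic reticulum, and SPPL3, an intramembrane protease, also rose on both days. Both were listed by choice, and their part in class I turnover in these cells was not tested. The day 14 call of TMEM129 was lost on leaving out replicate 2 of that day (adjusted p = 0.0631), with only the 2 days compared in the fit (0.0619) and under median-ratio scaling (0.216) or quantile normalization (0.175).

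**Figure D4:**
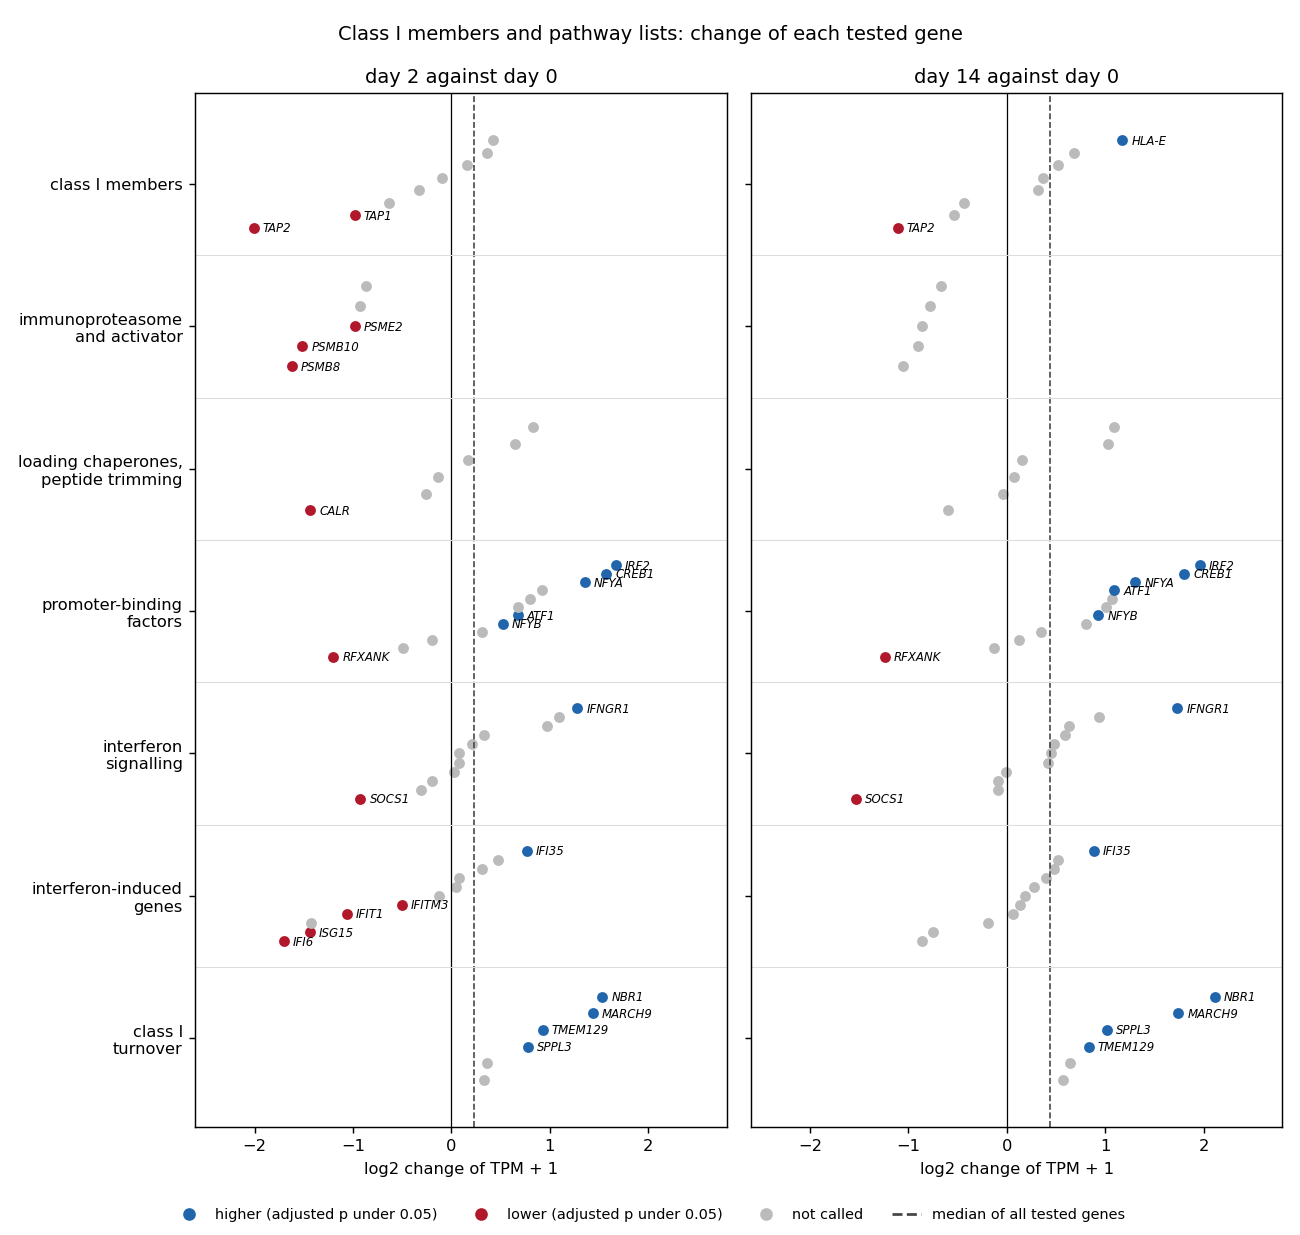
Log2 change of TPM + 1 (horizontal axis) of each tested gene in the class I members and 6 pathway lists (rows), at day 2 (left) and day 14 (right) against day 0, with called genes coloured and named and the median of all tested genes as a dashed line. TAP2 lies at -2.01 and PSMB8 at -1.62 at day 2, and NBR1 lies at 1.53 at day 2 and at 2.11 at day 14.

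Members differed in which genes their profile over the 9 libraries was most like, by the root mean square difference of centred log2(TPM + 1) values among genes with a mean of at least 5 TPM. TAP2 lay closest to TIMELESS (0.15), FANCA (0.17) and HNRNPAB (0.19), the first 2 acting at replication forks and in DNA repair, and the SD of its own profile was 0.92. TAP1 lay closest to AP2M1 (0.10), PRMT5 (0.10) and VARS (0.11), HLA-E to PDE6D (0.13), SLC25A51 (0.14) and BTRC (0.15), and B2M to MCTS1 (0.08), PDHX (0.10) and CST3 (0.11). TAPBP lay closest to ZBED1 (0.07), NFYC (0.09) and LARP4B (0.09), HLA-B to PTRH2 (0.16), HLA-C to TMEM255B (0.125) and HLA-F to AMN1 (0.22). Among the members the closest pair was HLA-C and HLA-F (0.34), followed by HLA-B and HLA-C (0.37) and HLA-B and HLA-F (0.37), and the pair TAP1 and TAP2 stood at 0.48. No other member was among the 3 nearest genes of any member. All these profiles share the same libraries, day 0 replicate 2 included, so the distances are descriptions and were not tested.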

How the data were processed

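RNA of PANC-1 cells was sequenced at day 0, day 2 and day 14 of deprivation, 3 samples each. The authors deposited TPM values for each gene symbol in a single table, quantified by Salmon, with hg19 named as build, per the submitters' processing notes. The version, annotation, strand setting and read filters are not given in the sources used here. Each value is a share of its library with no record of depth, so a rise of abundant messages lowers the others. Columns were matched to samples by day and replicate number, and each summed to 1000000.

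Values were analysed as log2(TPM + 1), which understates changes of low genes. The 14144 genes that reached 1 TPM in 3 or more libraries were tested two-sided with limma 3.58.1 (R 4.3.3). A single fit covered all 9 libraries and used an intensity trend, and p-values were adjusted by Benjamini-Hochberg over all tested genes with a threshold of 0.05. Shares of all tested genes called were computed at this threshold, and none was computed for unadjusted p-values. The fit was tested on simulated data. With 3 samples against 3, an exact permutation test of 1 gene could not go below 0.1, so none was used. Members, pathway lists and markers were chosen with earlier results of these data known. Named genes were the 9 members, 11 pathway genes chosen by name, the called pathway genes with the largest changes (up to 3 each way, at least 1 TPM) and the 3 genes nearest to each member. ATF1, NFYB, IFITM3 and IFNAR1 are also named where a count rests on them, after their values were seen, as are markers, antisense genes, CXCL10 and the NKG2D ligands that were not called. Not all genes of the rule are printed, and some genes of the pathway lists are not reported here. Alternatives used a pseudocount of 0.1 or of 5, no filter, a filter at a mean of 5 TPM, quantile normalization, scaling by median ratios, TPM without ribosomal protein genes, no trend, robust moderation, a replicate block, a fit of only the 2 days in question, and fits with 1 library left out in turn. Promoters came from RefSeq (GRCh38.p14) and word sharing from GENCODE 29 transcripts, both matched by symbol and not by coordinates. Figures were drawn with matplotlib 3.10.9.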

Additional observations from a re-analysis of the deposited data

How the results depend on the processing

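Of 2763 recomputed values, 2412 kept their direction and their side of the threshold (counts: stayed within 1.5 times). The fall of TAP2 at day 2 did so in all of them. The number of members lower at day 2 against day 0 was 1 with a replicate block and 1 to 2 over the fits leaving out each library. At day 14 against day 0 the number higher was 0 to 3 over those fits, and the number lower was 0 to 2. That number was also 0 with a pseudocount of 0.1, with no filter, with a replicate block and with only the 2 days compared, 2 under median-ratio scaling (TAP1 and TAP2) and 3 under quantile normalization (TAP1, TAP2 and B2M). At day 14 against day 2 the number higher was 4 with only the 2 days compared and 0 to 5 over the fits leaving out each library. The cause of these differences was not tested.

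Changes that turned round had adjusted p of at least 0.112 after turning, and 1 of them, the MR1 rise at day 2, had been called. Median-ratio scaling turned HLA-F to -0.0519 at day 2 against day 0. At day 14 against day 0 it turned HLA-B to -0.21, HLA-C to -0.0092, TAPBP to -0.16 and PDIA3 to -0.47, and at day 14 against day 2 B2M to -0.18 and PDIA3 to -0.0598. Quantile normalization turned HLA-F to -0.40, PDIA3 to 0.0459 and MR1 to -0.0522 at day 2 against day 0, and B2M to -0.0445 at day 14 against day 2. Over the fits leaving out each library, changes at day 2 against day 0 ran from -0.58 to 0.0401 for HLA-B, -0.0705 to 0.42 for HLA-F, -0.0782 to 0.74 for TAPBP and -0.0887 to 1.02 for CANX. At day 14 against day 0 they ran from -0.13 to 0.68 for TAPBP, -0.0007 to 0.13 for PDIA3 and -0.63 to 0.14 for RFX5, and at day 14 against day 2 from -0.10 to 0.0247 for TAPBP and -0.22 to 0.0504 for IRF1.

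The median change of all tested genes at day 14 against day 0 was 0.44 as deposited and 0.00 under median-ratio scaling. Called genes in all numbered 4841 there and 6913 without day 0 replicate 2. For day 14 against day 2 they numbered 59, 3854 without that library, 2648 with only the 2 days compared and 2 with the replicate block. Same-numbered libraries of different days did not deviate together (correlations across genes of -0.08 to 0.02). Differently numbered libraries gave a similar range (-0.03 to 0.06). With 3 libraries per day this check could not decide whether the numbers paired the samples. The block ended the calls of TAP1 at day 2 (adjusted p = 0.0503) and TAP2 at day 14 (0.0719) and changed no other call of a member. With it the promoter-binding factors that rose at day 2 numbered 2 rather than 5, interferon signalling genes that fell at day 2 numbered 0 rather than 1, and immunoproteasome genes that fell at day 14 numbered 1 rather than 0. Called genes in all, against day 0, numbered 3290 rather than 4348 at day 2 and 3771 rather than 4841 at day 14. Depth was unknown.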

Other observations

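Ligands and relatives of class I that other receptors read gave 3 rises and 1 fall among 9 tested genes at day 2, and 3 rises and 0 falls at day 14, against day 0. Of all tested genes 19.2% rose and 11.5% fell at day 2, and 27.5% rose and 6.72% fell at day 14. The 1 fall in 9 at day 2 and the 3 rises in 9 at day 14 are near these shares. ULBP1, a class I-like ligand of the activating receptor NKG2D, was at 16.8, 17.5 and 19.5 TPM at day 2, against 0.440, 0.203 and 1.12 TPM at day 0. At day 14 it was at 10.9, 13.2 and 11.4 TPM, above every day 0 library and below every day 2 library. The changes against day 0 were 3.61 ± 0.23 at day 2 (limma adjusted p = 6.74e-05) and 3.05 ± 0.23 at day 14 (adjusted p = 0.000173), and both were called in every alternative run. The other NKG2D ligands MICA, MICB, ULBP2 and ULBP3 were not called on either day, and without day 0 replicate 2 ULBP2 was called lower at day 2 (adjusted p = 0.0377) and MICA higher at day 14 (0.0434). FCGRT, the heavy chain of the neonatal Fc receptor, which also pairs with B2M, rose by 1.01 at day 2 and by 0.94 at day 14 (adjusted p = 0.006 and 0.0078), calls that were lost under median-ratio scaling (adjusted p = 0.0732 and 0.287). The fall at day 2 was PROCR, the endothelial protein C receptor, at 17.2, 21.2 and 16.3 TPM at day 2, against 51.9, 22.3 and 45.2 TPM at day 0 (-1.01, adjusted p = 0.0342), and this call was lost on leaving out any 1 library except day 0 replicate 2. MR1, which presents vitamin metabolites, stayed at or below 1.785 TPM and reached 1 TPM only in the 3 day 14 libraries. It was thus tested only because of the day where it was highest, so its day 14 call is not independent of the filter. It is counted among the rises of both days, with changes against day 0 of 0.45 at day 2 (limma adjusted p = 0.0402) and 1.02 at day 14 (adjusted p = 0.00144). Its day 2 call was lost on leaving out any 1 library of days 0 and 2, and with any 1 day 14 library left out it no longer reached 1 TPM in 3 libraries and was not tested.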
